A study of Homo sapiens with 2 samples.

Results

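MYB, MYC, DACH1, KIT, CD34, GFI1, GATA2, RUNX1, LMO2 and ERG are 10 genes that regulate or mark blood progenitor cells. They were taken by name from the 20046 genes that the platform annotation names, through every probe whose only gene symbol was one of the 10, which gave 22 of 30113 such probes. The group was chosen by the log2 differences that an earlier analysis of these same 2 arrays gave for MYB and DACH1, and by known progenitor roles. The arrays were single-colour Illumina arrays, and both read total RNA of THP-1, a human monocytic leukaemia line that carries a KMT2A-MLLT3 fusion. One array (shLY6E) read cells that stably express a short hairpin RNA against LY6E (a folded transcript that cells cut into a small RNA, which silences an mRNA of matching sequence), and the other (shCtrl) read cells with a scrambled hairpin. Both derivatives grew in the same medium with puromycin at 400 ng/ml, and the sources used here do not give whether either is 1 clone or a pool of cells. A single array per condition (n = 1) leaves every difference without a replicate check and without a test, and precision is limited by that number of arrays.

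The genes fall into a few roles. MYB, MYC, GFI1, GATA2, RUNX1 and ERG encode transcription factors that bind DNA, LMO2 encodes a bridging protein without DNA contact of its own, and DACH1 encodes a transcriptional regulator of the SKI and DACH family. KIT encodes the receptor tyrosine kinase for stem cell factor, and CD34 a sialomucin of the progenitor surface. In normal blood formation MYB, GATA2, KIT and CD34 are highest in stem and progenitor cells and decline as monocytes mature, and MYB is required for growth of leukaemia cells with KMT2A fusions. MYC drives ribosome production and cell growth as a dimer with MAX.

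Of the 10 genes, 8 were detected on at least 1 array, meaning that a probe had a detection p-value under 0.01 against negative controls. CD34 and ERG were detected on neither array, so 2 defining genes of the progenitor state were not well above background here. Of the 22 probes, 10 were detected on both arrays, 1 on the shCtrl array only and 11 on neither. Deposited intensities of all 22 probes were lower on the shLY6E array, at 0.173 to 0.96 times the shCtrl reading. That array was dimmer as a whole, with a median intensity of 97.5 against 116, a ratio of 0.84. A difference is therefore the log2 of background-corrected, quantile-normalized intensity in shLY6E less that in shCtrl. Spread could be read only between probes of 1 gene on the same 2 arrays, as a within-gene SD of the difference, which was 0.28 over 2254 genes. LY6E itself read 253 in shLY6E and 1049 in shCtrl and was 3.67-fold lower (log2 difference -1.88), on its 1 probe.

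**Figure D1:**
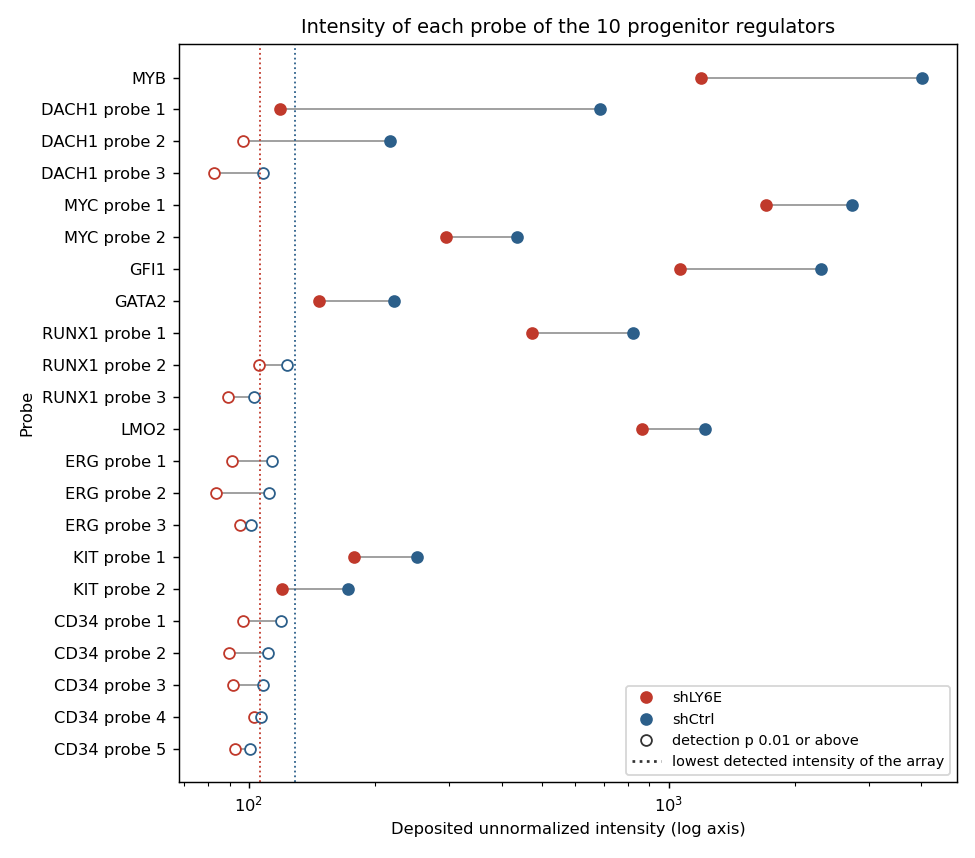
Deposited unnormalized intensity (x, log axis) of each of the 22 probes (y) on the shLY6E array (red) and the shCtrl array (blue), filled where the detection p-value was under 0.01, with dotted lines at the lowest detected intensity of each array, 106 and 129. MYB and the brightest DACH1 probe have the widest gaps. Each CD34 and ERG point lies left of the dotted line of its own array.

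MYB and DACH1 were the 2 of 8 detected genes that were at least 2-fold lower in shLY6E, while the count in the higher direction was 0. The background over all 10565 detected genes was 2.55% in the lower direction and 2.27% in the higher. At the looser threshold of 1.5-fold, 3 of the 8 genes were lower, the third being GFI1, and 9.63% of all genes were. GFI1 was just past that threshold, at 1.52-fold, and fell short of it at 1.49-fold without background correction. The median difference of the 8 genes was -0.33, and that of all genes -0.04. These genes were put together with their values known, so the counts, the median and the ranks given below describe them and support nothing further. In RNA from whole cultures, fewer cells expressing a gene and less of its RNA per cell cannot be told apart.

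**Figure D2:**
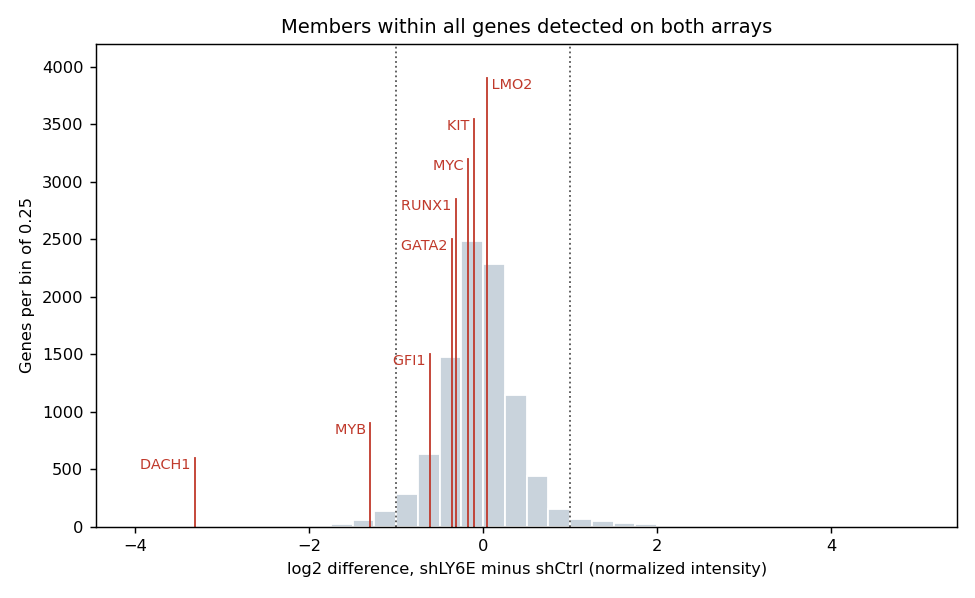
Histogram of the log2 difference (x, shLY6E minus shCtrl) of the 9364 genes detected on both arrays (y, genes per bin of 0.25), with a red line for each detected member at its difference, its height chosen only to fit the label. DACH1 at -3.31 and MYB at -1.30 lie left of the dotted line at -1, and the other 6 lie between the dotted lines.

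MYB, the progenitor transcription factor whose loss ends self-renewal, was read by 1 probe, ILMN_1711894. The deposited readings were 1198 in shLY6E and 4018 in shCtrl, both far above the lowest detected intensity of either array. Normalized, these were log2 intensities of 10.44 and 11.74, a difference of -1.30, so that MYB was 2.46-fold lower in shLY6E. This difference ranked 84 from the lowest among the 9364 genes detected on both arrays. Many genes with larger folds were dim. Among the 1438 genes with a mean deposited intensity of at least 1000, 1.25% were at least 2-fold lower, and MYB ranked 5 from the lowest. That minimum was chosen after seeing the data, and MYB was itself chosen by its difference, so these ranks only describe it. The probe was bright, and the MYB difference moved little with the background treatment: it was -1.25 with none and -1.33 in the authors' processed values, where MYB ranked 21 and 75 from the lowest.

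DACH1, a regulator that binds corepressors and restrains growth factor responses in several tissues, had the lowest difference of all 9364 genes detected on both arrays, and kept that rank under each of the 5 treatments of background and scaling. Its brightest probe, ILMN_1755741, read 119 in shLY6E and 687 in shCtrl, or log2 intensities of 5.64 and 8.96 after normalization. The difference was -3.31, a 9.94-fold lower signal, but the shLY6E reading lay just above the lowest detected intensity of that array, 106. Without background correction the difference was -2.11, or 4.33-fold, and with an offset of 50 it was -2.66.

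The other DACH1 probes extend this reading. The probe ILMN_1666882, which the annotation ties to another DACH1 transcript, read 96.6 in shLY6E, below detection, and 216 in shCtrl. The deposited ratio was 0.446. On the background-corrected scale the bound for DACH1 by that probe was 3.17-fold lower, but its log2 difference was -0.84 without background correction and -1.27 with an offset of 50, so its size depends on the background treatment. The bound sets the shCtrl value against the higher of the shLY6E value and the lowest normalized intensity of a detected probe there. The third probe, ILMN_2386053, read 82.7 and 108 and was detected on neither array, so it says nothing on direction. The 2 detected DACH1 probes thus had the same direction and different sizes, and the size for DACH1 is the least settled of all members.

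RefSeq promoter windows of MYB and DACH1 are shown because these were the members at least 2-fold apart. Each runs from 250 bases before to 50 after the transcript start on assembly GRCh38.p14, 5′ to 3′ along the gene's strand. Capitals mark matches on either strand to CACGTG, the MYC-MAX E-box, to AACGG or its variant form AACTG, the MYB site, to AGATAA, the GATA site, and to TGTGGT, the RUNX site. MYB lies on chromosome 6 (chr6:135181058-135181357, plus strand) and DACH1 on chromosome 13 (chr13:71867155-71867454, minus strand).
MYB: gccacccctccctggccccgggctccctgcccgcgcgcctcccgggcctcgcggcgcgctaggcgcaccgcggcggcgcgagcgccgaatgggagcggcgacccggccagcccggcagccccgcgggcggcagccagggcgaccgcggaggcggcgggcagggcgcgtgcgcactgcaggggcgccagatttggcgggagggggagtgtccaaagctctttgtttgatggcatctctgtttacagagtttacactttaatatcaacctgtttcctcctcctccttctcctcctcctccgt
DACH1: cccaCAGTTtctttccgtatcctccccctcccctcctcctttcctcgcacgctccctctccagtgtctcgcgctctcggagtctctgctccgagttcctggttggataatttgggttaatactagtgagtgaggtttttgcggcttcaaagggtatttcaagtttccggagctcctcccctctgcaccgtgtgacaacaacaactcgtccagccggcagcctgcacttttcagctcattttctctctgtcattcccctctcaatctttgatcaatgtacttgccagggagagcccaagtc
The MYB window, 71.0% G and C, held 0 matches to these motifs. The DACH1 window, 53.0% G and C, held 1, the second form of the MYB site on the reverse strand, beginning 246 bases before the start. Of 35116 RefSeq windows of this length, whose median was 58.7% G and C, 39.7% held the second form of the MYB site, 19.7% the first form, 13.1% the RUNX site, 10.3% the GATA site and 7.26% the E-box. The motif matches overlapped at 0 places. A match describes letters in the window and not a bound site, and the arrays do not read binding.

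MYB and DACH1 were set beside the genes around them. The 20 nearest genes to MYB in chromosomal order, among genes detected on both arrays, had a median difference of 0.02. Of them 0 were at least 2-fold lower, where 2.55% of all detected genes were lower and 2.27% higher by that much. Of the 20 neighbours of MYB, 2 were at least 2-fold higher, the kinase gene SGK1 at 2.51 and TNFAIP3, an inhibitor of NF-kB signalling, at 2.17 (both named after their values were seen). The 20 neighbours of DACH1 had a median of -0.05, ran from -0.88 to 0.56, and none (0) was 2-fold apart in either direction. For comparison, the 324 genes of chromosome 10 had a median difference of -0.80 against -0.03 elsewhere, and 0 of the 10 members lie on chromosome 10. Medians of the chromosomes that hold MYB and DACH1 were 0.02 and -0.05. The part of the chromosomal region in either difference was not tested.

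**Figure D3:**
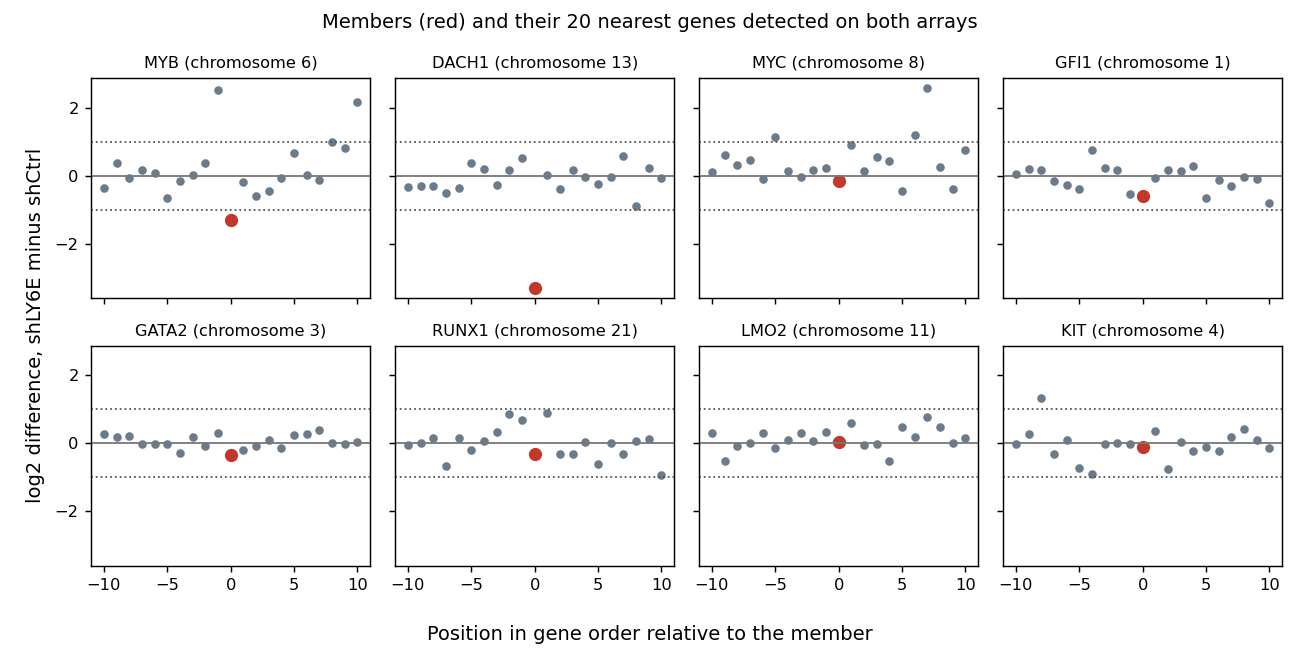
log2 difference (y, shLY6E minus shCtrl) of each of the 8 detected members (red, at 0) and of the 20 nearest genes detected on both arrays (grey), by position in gene order (x). DACH1 at -3.31 stands below all of its neighbours, of which the lowest is at -0.88, and MYB at -1.30 stands below its lowest neighbour, at -0.65.

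The genes detected on both arrays with the nearest difference to MYB were MAPK8, which encodes a stress-activated kinase, the kinesin gene KIF17 and SAPCD2, at -1.30, -1.30 and -1.29. MAPK8 lies on chromosome 10. The nearest to DACH1 were MSRB3 at -2.93, LAMA5 at -2.37 and MYBPH at -2.35. Likeness here is 1 difference between 2 arrays, which many genes share.

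MYC differed little between the arrays. Its brighter probe, ILMN_1680618, read 1711 in shLY6E and 2733 in shCtrl, and the normalized difference was -0.17, or 1.13-fold lower. The other, ILMN_2110908, read 294 and 436 with a difference of -0.06. Both differences were smaller than the within-gene SD of 0.28, which is a spread between probes on the same arrays and not between repeat cultures. MYC ranked 3306 of 9364 from the lowest, against 84 for MYB.

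Genes of the MYC dimerization network, which compete with MYC for MAX or control its turnover, were described next to it. Of 19 listed, 14 were detected, 0 were at least 2-fold apart, 2 were at least 1.5-fold lower and 0 higher. The list median was -0.25, and 11 of the 14 were below 0 on the brightest probe, against 54.4% of all genes. With the mean over a gene's kept probes the list median was -0.15. Other probes of genes below 0 went in both directions. They gave 0.24 for MGA, -0.17 and 0.42 for SKP2, and 0.08 and 0.51 for FBXW7. For AURKA and MXI1 they gave -0.50 and -0.07. MXD3 and MXD4, which encode MAX partners that repress transcription, were 1.82-fold and 1.60-fold lower. MXD1, another such partner that is known to rise as myeloid cells mature, stood at 0.58, with deposited intensities of 164 and 176. This probe was dim, and MXD1 stood at 0.30 without background correction and 0.19 under median scaling. ZBTB17, the MYC-binding transcription factor also called MIZ1, was 1.49-fold lower. Under median scaling these counts changed, since MXD3, MXD4 and ZBTB17 stood at -1.28, -1.15 and -1.01, and 3 genes were then at least 2-fold lower.

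Genes that MYC is known to activate were centred on the rest of the transcriptome, at a median of -0.04, equal to that of all genes. With the mean over a gene's kept probes the list median was 0.06 and that of all genes -0.03. Of 28 listed, 22 were detected and 21 of these lay within 1.5-fold on the brightest probe. The exception, RRP12, a ribosome assembly gene on chromosome 10, was 2.27-fold lower, and stood at -0.94 without background correction, short of 2-fold. HSPD1 stood at -0.21 on its brightest probe, but its other probes gave 0.16 and 1.28. NOP56 stood at -0.21, with 0.43 and -0.07 on its other probes. FBL, the nucleolar methyltransferase fibrillarin, was 1.39-fold higher, DKC1, the pseudouridine synthase dyskerin, 1.37-fold and the amino acid transporter gene SLC7A5 1.36-fold, and under median scaling these 3 stood at 0.03, 0.01 and -0.0004. Of 8 genes that MYC is known to repress, all 8 were detected, 1 was at least 1.5-fold lower and 1 higher, and the median was 0.09, or -0.24 under median scaling. CDKN1A, which encodes the cyclin-dependent kinase inhibitor p21, was 1.68-fold lower, or -1.19 on the log2 scale under median scaling, and NDRG1, a growth arrest and stress gene, 1.67-fold higher. GADD45A, a DNA damage response gene, was 1.41-fold higher. Under median scaling NDRG1 and GADD45A stood at 0.27 and 0.02. CDKN1B, which encodes the inhibitor p27, stood at 0.29, or -0.17 under median scaling, and its other probe gave -0.43.

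Genes tied to MYB were centred near 0. Of 19 relatives, cofactors and target genes, 17 were detected, 0 were at least 2-fold apart, 1 was at least 1.5-fold lower and 2 higher, with a median of -0.01. PRTN3, a granule protease gene and MYB target, read 4793 in shLY6E and 9928 in shCtrl and was 1.61-fold lower. CXCR4, a chemokine receptor gene, was 1.92-fold higher, with 0.31 on its other probe. ANPEP, which encodes the myeloid surface peptidase CD13, was 1.56-fold higher and ADA, adenosine deaminase, 1.46-fold higher. The granule genes AZU1 and ELANE, at -0.33 and -0.04, and the survival gene BCL2, at -0.01, were within 1.5-fold (these 3 were named as known MYB targets and not for size). EP300 and CREBBP, which encode the coactivators that MYB binds, differed by 0.06 and 0.19, or -0.41 and -0.28 under median scaling.

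The relatives and partners of DACH1 were mostly dim. Of 19 relatives of DACH1, homeobox and EYA partners, SKI genes and corepressors, 9 were detected, with a median of 0.20, or -0.22 under median scaling. The single gene at least 2-fold apart, SKIDA1, which encodes a protein with a SKI/DACH domain, read 229 and 630 and was 2.39-fold lower, and stood at -0.97 without background correction, short of 2-fold. It lies on chromosome 10, and without it the median was 0.30. SKI and SKIL, which encode repressors related to DACH1, were 1.44-fold and 1.59-fold higher after normalization. Both were dim: SKI read 168 in shLY6E and 183 in shCtrl, SKIL read 128 and 135, and without background correction their log2 differences were 0.28 and 0.24. CCND1, the cyclin D1 gene that DACH1 is known to repress, was 1.66-fold higher, with 185 in shLY6E and 187 in shCtrl. Its log2 difference was 0.73, or 0.40 without background correction and 0.33 under median scaling.

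GFI1, a zinc finger repressor that balances neutrophil against monocyte fate, had the third largest difference among the members. Its probe, ILMN_1690420, read 1064 in shLY6E and 2305 in shCtrl, and GFI1 was 1.52-fold lower (log2 difference -0.61). Its rank from the lowest was 836 of 9364 genes, and 73 of the 1438 bright ones. Whether GFI1 passes 1.5-fold thus depends on the background treatment, and whether it passes 2-fold depends on the scaling, since it stood at -1.05 when the arrays were scaled to a common median. That scaling moved the median of all genes to -0.42, and relative to it GFI1 was at -0.63. Of 7 listed relatives and corepressors of GFI1, 4 were detected and all 4 lay within 1.5-fold, with a median of -0.12. The histone methyltransferase gene EHMT2 stood at -0.35, the deacetylase genes HDAC2 and HDAC1 at -0.15 and -0.01, and KDM1A, the lysine demethylase LSD1, at -0.09.

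GATA2, RUNX1, LMO2 and ERG belong to a group of factors that occupy enhancers together in progenitors. GATA2, a zinc finger factor of stem cells, read 147 and 222 and stood at -0.36, a 1.28-fold lower signal. RUNX1, the DNA-binding subunit of core binding factor, read 472 and 822 on its brightest probe and stood at -0.31, or 1.24-fold lower. These differences were little larger than the within-gene SD. The other RUNX1 probes were detected on neither array. One of them, ILMN_1669335, lay just outside the detection threshold, with p-values of 0.013 in shLY6E and 0.031 in shCtrl. LMO2 read 864 and 1218 and stood at 0.04, or -0.40 under median scaling and 0.01 relative to all genes there. The 3 ERG probes read between 83.4 and 95.0 in shLY6E and between 101 and 113 in shCtrl, with detection p-values from 0.22 to 0.93.

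Of 19 partners and relatives of these factors, 13 were detected, 0 were at least 2-fold apart, 3 were at least 1.5-fold lower and 2 higher, with a median of -0.14. RUNX2, a RUNX1 relative, was 1.67-fold lower, and its other probe gave -0.32. TCF3, which encodes the E proteins that pair with TAL1 or LYL1, was 1.57-fold lower. SSBP2 and SSBP3, which encode proteins that stabilise LDB1 complexes, were 1.55-fold and 1.54-fold higher, though the other SSBP3 probe gave 0.03. Scaled to a common median, SSBP2 and SSBP3 stood at 0.18 and 0.15. Under median scaling 3 genes of this list were at least 2-fold lower. These were RUNX2 at -1.16, TCF3 at -1.12 and LMO4, a relative of LMO2, at -1.08. In the main setting LMO4 stood at -0.60, with -0.49 on its other probe. The core binding factor subunit gene CBFB was at -0.14 and LYL1, a relative of TAL1, at -0.25, while TAL1 and LDB1 were not detected (these 4 were named for their role).

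**Figure D4:**
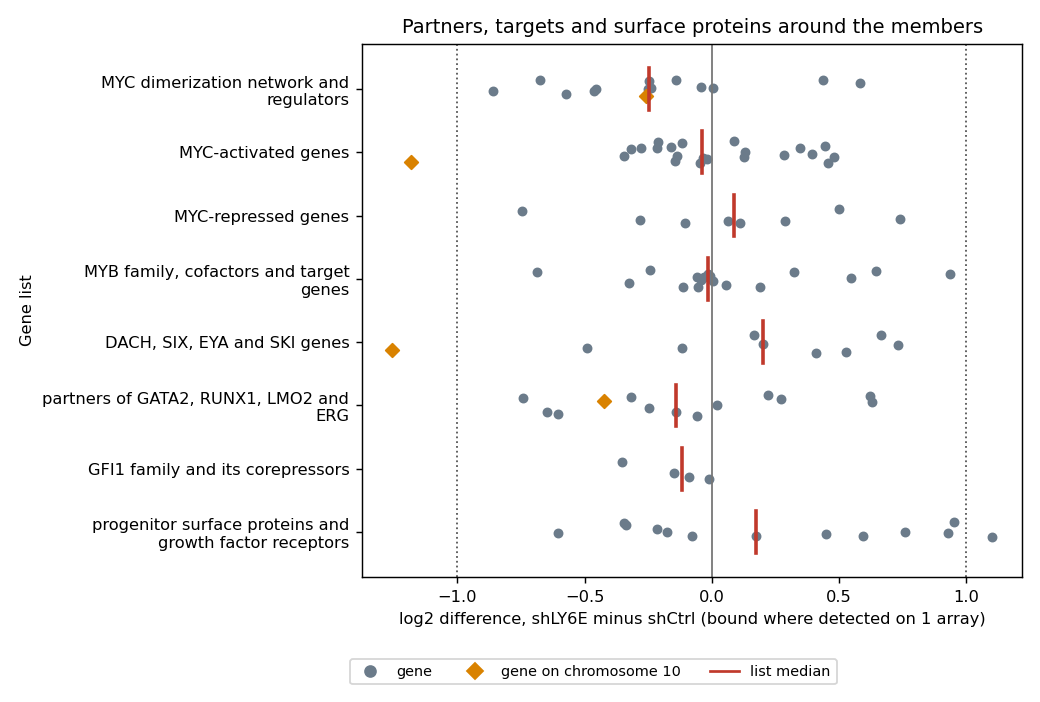
log2 difference (x, shLY6E minus shCtrl, with the bound where a gene was detected on 1 array) of the detected genes of each of 8 lists (y), with list medians in red and genes of chromosome 10 as orange diamonds. RRP12 and SKIDA1, the 2 genes left of -1, are on chromosome 10, and FLT3, at 1.10, is the 1 gene right of 1.

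KIT was read by 2 probes, both dim and detected on both arrays. ILMN_1790160 read 178 in shLY6E and 251 in shCtrl, with a difference of -0.11, and ILMN_2229379 read 120 and 173, with a difference of -0.44. The annotation ties these probes to different KIT transcripts. Their gap of 0.33 was close to the within-gene SD, and neither reached 1.5-fold. KITLG, which encodes the ligand of KIT and was named for that role, was 1.52-fold lower at intensities of 117 and 175. The 5 CD34 probes read between 89.7 and 103 in shLY6E and between 101 and 119 in shCtrl. The lowest CD34 detection p-value on either array was 0.044, in shLY6E, and the same probe had 0.55 in shCtrl.

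Other surface proteins and growth factor receptors of progenitors had a median above that of all genes. Of 20 listed, 13 were detected, 5 were higher by 1.5-fold or more, 1 of them by over 2-fold, and 1, KITLG, was at least 1.5-fold lower. The median was 0.17, or -0.23 under median scaling and 0.19 relative to all genes there, and 6.55% of all genes were at least 1.5-fold higher. FLT3, a receptor kinase related to KIT, read 267 and 223 and was 2.15-fold higher, but stood at 0.72 without background correction and 0.67 under median scaling. With either of these, and with an offset of 50, 0 genes of the list were at least 2-fold higher. CSF1R, the receptor for macrophage colony-stimulating factor, was 1.93-fold higher, ITGA4, the integrin alpha 4 chain, 1.90-fold higher and the hyaluronan receptor gene CD44 1.69-fold higher. The other probes of CD44 gave 0.77 and 1.21. Under median scaling CSF1R, ITGA4 and CD44 stood at 0.53, 0.52 and 0.33. ITGA4 was dim, at 231 in shLY6E and 210 in shCtrl, and stood at 0.58 without background correction. CSF1R is also among the monocyte markers described next.

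Monocyte markers differed in both directions. Of 14 listed, 12 were detected on both arrays, as the label of a monocytic line has it, with deposited intensities that summed to 25222 in shLY6E and 26959 in shCtrl. Their median difference was 0.14, 4 of the 12 were below 0, 2 were at least 2-fold higher in shLY6E, where 2.27% of all genes were, and 0 were at least 1.5-fold lower. The lipopolysaccharide co-receptor gene CD14 was 10.3-fold higher on its brightest probe, which read 512 in shLY6E and 153 in shCtrl, near the lowest detected intensity there. The log2 difference of CD14 was 3.37 on that probe, 2.19 without background correction, and 2.34 on the other probe. The lysozyme gene LYZ was 5.25-fold higher, a log2 difference of 2.39, with 1.36 on its other probe. The integrin gene ITGAM stood at -0.48, the myeloid transcription factor gene CEBPB at -0.28 and the lysosomal marker CD68 at -0.22 (these 3 were named after their values were seen). The other CD68 probes gave 1.68 and -0.19, so the direction for CD68 differed between its probes. SPI1, which encodes the myeloid factor PU.1, was 1.44-fold higher and IRF8, a monocyte lineage factor, was at -0.22. Of 10 markers of T and NK cells, 0 were detected on either array. The B cell markers CD79A and CD79B, 2 of 7 erythroid markers (EPOR and AHSP), 3 of 7 megakaryocyte markers (GP9, GP1BA and PPBP) and 1 of 7 epithelial and fibroblast markers (PDGFRB) were detected on 1 or both arrays. The kept probes of these 4 lists summed to 220, 234, 365 and 101 in shLY6E and to 289, 319, 464 and 134 in shCtrl. The part of maturation state or of other cells in the MYB and DACH1 values was not tested.

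**Figure D5:**
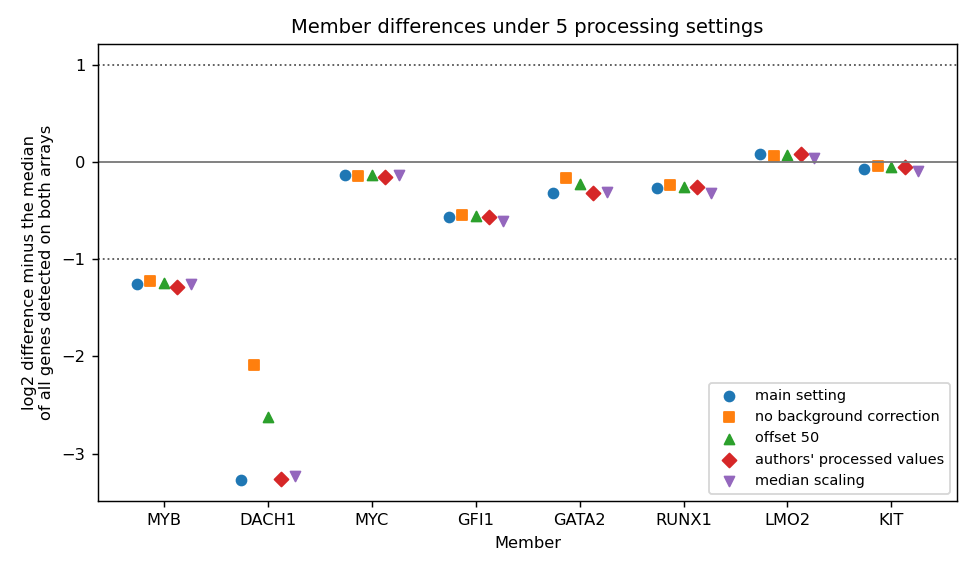
log2 difference of the 8 detected members (x) less the median of all genes detected on both arrays (y) under 5 treatments of background and scaling, each with its own marker. MYB stays between -1.29 and -1.22 and DACH1 between -3.27 and -2.09, and the other 6 stay between the dotted lines at -1 and 1.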

How the data were processed

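Total RNA of 2 THP-1 derivatives was read on Illumina arrays from biotin-labelled cRNA, per the labels' protocols. The deposited unnormalized table paired each array's linear intensity with its detection p-value, for 47321 probes, per the file headers. Both detection columns share a header name, so each was paired with the intensity on its left, whose rank correlation with it across probes was -0.984 in shLY6E and -0.987 in shCtrl, against -0.835 and -0.83 for the opposite pairing (probes are not independent replicates). A second deposited table held the authors' processed intensity, whose values were linear, had a median of 6.14 on both arrays and lay below 0 for 25.5% of probes. The sources used here do not give how the authors subtracted background and normalized. Every column belonged to a sample, so 0 were left over.

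Background was removed from the unnormalized intensities by normexp, fitted through the detection p-values with an offset of 16, and the result was quantile-normalized before log2 was taken (limma 3.58.1, R 4.3.3). Later steps used Python 3.11.15, numpy 2.4.6, pandas 2.3.3 and matplotlib 3.10.9. Both the offset and remaining background pull dim genes toward no difference. The brightest probe detected on at least 1 array stood for a gene, and 10565 genes were kept. That probe was detected on both arrays for 9364 genes, in shLY6E alone for 571 and in shCtrl alone for 630. Probes were named through the platform annotation, with Entrez IDs looked up in RefSeq (assembly GRCh38.p14), which changed 0 symbols. Groups were taken from the sample titles.

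No test was run, since each group had 1 array. The steps were tested on simulated data. The members and the 8 lists were chosen with earlier results of these data known. Named genes were the 10 members, LY6E, the 4 or fewer largest differences of each list, and the 3 nearest genes by difference to each member at least 2-fold apart. Genes named for a role or after their values were seen are marked as such, and markers were named by role. The minimum intensity of 1000 for bright genes was chosen after seeing the data, as were 3 of the 11 alternative settings.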

Additional observations from a re-analysis of the deposited data

How the results depend on the processing

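No paired analysis was possible because 1 array stood for each condition. A value was taken as moved when it shifted by more than the within-gene SD between probes, 0.28, and a count when it shifted by over 1.5 times. Of 188 recomputed values, 160 stayed within these limits and 0 of those at least 2-fold apart changed sign. Part of the 160 could not move. LY6E and the 8 detected members were detected on both arrays, so a looser detection limit or the measured difference returned their main values. The mean over a gene's kept probes did the same for genes with 1 kept probe, MYB among them. MYB and DACH1 were at least 2-fold lower under every setting run. Median scaling moved all 8 detected members: it placed the median of all genes at -0.42, LY6E at -2.32, MYB at -1.70, DACH1 at -3.68, GFI1 at -1.05, RUNX1 at -0.77, GATA2 at -0.75, MYC at -0.58, KIT at -0.53 and LMO2 at -0.40. Taken relative to that median, a setting chosen after seeing the data, none (0) of these moved. List medians under median scaling were -0.67 for the MYC network, -0.39 and -0.24 for MYC-activated and MYC-repressed genes, -0.34 for MYB, -0.22 for DACH, -0.57 for partners of GATA2, RUNX1, LMO2 and ERG, -0.58 for GFI1 and -0.23 for surface proteins. Without background correction LY6E stood at -1.55 and DACH1 at -2.11, and DACH1 stood at -2.66 with offset 50 and at -2.49 as the mean over its probes. With a detection p-value under 0.05, CD34 was kept with a bound of 0.09. All genes at least 2-fold lower and higher numbered 269 and 240 in the main setting (47.2% of them higher), 65 and 97 without background correction (59.9%), 909 and 130 with median scaling (12.5%), and 129 and 144 with offset 50 (52.7%). Without chromosome 10, a setting chosen after seeing the data, 158 were lower and 60.2% were higher. Except that an offset and uncorrected background shrink differences by construction, the cause was not tested. Signal over background limits the genes near 106 in shLY6E or 129 in shCtrl. Among them were DACH1 in shLY6E and the dimmer KIT probe, ILMN_2229379, which read 120 in shLY6E.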
